A study of Mus musculus with 12 samples.

Results

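The 6 killer lectin-like receptor genes, Klrd1, Klrc1, Klrc2, Klrk1, Klre1 and Klrg1, were followed in RNA sequencing of activated mouse spleen T cells. They were taken by name from a table of 47643 genes, so the set held 6 genes. The set was selected on the values with IL-6+TGF-β, among which Klrd1 rose most, and those values are therefore given as a description, with no test. According to the labels the cells were naive CD4+ T cells of C57BL/6 spleens, and plate-bound antibodies to CD3 and to CD28, each coated at 2 μg/ml, had stimulated them for 3 days. All 4 groups shared this stimulation, and each held 3 libraries. Cells of Tnfr2-/- mice, which lack TNF receptor 2 (gene Tnfrsf1b), received TNF at 20 ng/ml with TGF-β at 2 ng/ml. Wild-type (WT) cells received the same TNF+TGF-β, or IL-6 at 20 ng/ml with TGF-β at 2 ng/ml, or no added cytokine (Th0). The labels do not say whether the libraries of a group came from separate mice or cultures, so p-values measure only the spread between these libraries, which may be technical. The deletion in Tnfr2-/- mice is not described as restricted to T cells. Neither Tnfr2-/- cells without cytokine nor cells given TGF-β alone were analysed here.

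The killer lectin-like receptors are C-type lectin-like membrane proteins of natural killer (NK) cells and of subsets of activated or memory CD8 T cells. CD94, the product of Klrd1, has almost no cytoplasmic tail and pairs with a partner of the NKG2 family that sets the sign of the signal. NKG2A (Klrc1) carries inhibitory motifs, while NKG2C (Klrc2) signals through the activating adaptor DAP12, and both pairs bind the non-classical MHC class I molecule Qa-1 (H2-T23). NKG2D (Klrk1) is an activating receptor without CD94, KLRE1 (Klre1) pairs with KLRI1 or KLRI2, and KLRG1 (Klrg1) is an inhibitory receptor for cadherins that marks terminally differentiated effector T cells.

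On GRCm38 the genes Klre1, Klrd1, Klrk1, Klrc2 and Klrc1 lie within 101069 bases of chromosome 6, from 129577905 to 129678973, and 1 further gene, Klrc3, lies between them. Klrg1 lies 7.30 Mb from this cluster on the same chromosome, at 122270596 to 122282882. Klrd1 (ENSMUSG00000030165.16) spans 129591782 to 129598775 on the forward strand, and Klrc1 (ENSMUSG00000030167.15) spans 129666015 to 129678973 on the reverse strand. Klrc1 and Klrc2 are close copies, and the coding sequences of the GENCODE transcripts were 83.7% identical over 711 aligned bases. Of all stretches of 50 bases in the Klrc1 transcripts, 36.6% also occurred in Klrc2, whereas Klrd1, Klrk1 and Klrg1 shared none with any other gene. The most divergent and the most alike 100 coding bases of the pair are shown because they set how far reads of Klrc1 and Klrc2 could be told apart. In the first pair, 40 bases differ and stand in capitals. The third line, at coding bases 633 to 732 of Klrc1, is identical in Klrc2, at 615 to 714.
Klrc1, coding bases 270 to 369: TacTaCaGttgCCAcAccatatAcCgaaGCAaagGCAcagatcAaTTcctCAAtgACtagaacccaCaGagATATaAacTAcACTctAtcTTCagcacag
Klrc2, coding bases 252 to 351: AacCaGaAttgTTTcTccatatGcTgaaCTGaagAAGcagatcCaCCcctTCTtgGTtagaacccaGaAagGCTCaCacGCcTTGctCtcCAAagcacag
Klrc1 and Klrc2, identical stretch: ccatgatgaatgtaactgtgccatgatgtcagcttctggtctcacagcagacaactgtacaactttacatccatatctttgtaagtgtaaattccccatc
Values of Klrc2 below are therefore uncertain, because the counting program had to divide reads from such stretches between Klrc1 and Klrc2. The same holds for Klrc3, whose coding sequence was 94.9% identical to that of Klrc2.

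Expression is given in FPKM, the fragments of a gene divided by its transcript length in kilobases and by the total mapped in that library. Differences are means of log2(FPKM + 1) with their standard errors (SE) from limma, which understates changes of low genes, and a gene is called at an adjusted p under 0.05 over 13082 tested genes. A gene was tested where it reached 1 FPKM in at least 3 libraries. Of the 6 receptor genes, 4 were tested, and Klre1 passed only through its 3 IL-6+TGF-β libraries. Klrc2 reached 1 FPKM in 2 libraries and Klrg1 in 0. Estimated depth was 16800000 to 23900000 fragments per library, at which 3 fragments on a transcript of 1 kilobase correspond to 0.126 to 0.179 FPKM.

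The targeted gene Tnfrsf1b had 4.87, 3.71 and 3.19 FPKM in Tnfr2-/- libraries, against 74.39, 108.17 and 70.77 FPKM in WT TNF+TGF-β libraries, which fits the genotype labels. The labelled cell type was not matched by its coreceptor, since Cd8a and Cd8b1 were both above Cd4 in 11 of 12 libraries. The exception was the Tnfr2-/- library numbered 4, with 8.54 FPKM of Cd8a, 20.94 FPKM of Cd8b1 and 10.32 FPKM of Cd4. The sum of Cd8a and Cd8b1 was 29.5 to 78.9 FPKM in Tnfr2-/- and 307 to 358 FPKM in WT TNF+TGF-β libraries, with 256 to 343 FPKM in WT IL-6+TGF-β and 115 to 180 FPKM in WT Th0 libraries. The 8 B cell markers summed to 1961 to 4297 FPKM in Tnfr2-/- libraries, against 264 to 341 FPKM in WT TNF+TGF-β libraries. Their sum was 414 to 923 FPKM in WT IL-6+TGF-β and 767 to 1223 FPKM in WT Th0. Markers of gamma-delta and innate-like T cells, 7 genes, summed to 6.83 to 9.24 FPKM in Tnfr2-/-, 14.0 to 19.8 FPKM in WT TNF+TGF-β and 23.1 to 42.05 FPKM in the other WT libraries. Dendritic cell markers stayed at or below 12.4 FPKM in sum, and erythroid markers reached 79.4 FPKM in Tnfr2-/- and 8.14 FPKM in WT libraries. The CD4 markers Cd4 and Zbtb7b summed to 14.1 to 22.9 FPKM in Tnfr2-/- and 47.25 to 82.9 FPKM in WT TNF+TGF-β, and to 5.54 to 67.0 FPKM in the other WT libraries. The 10 NK markers summed to 46.3 to 113 FPKM in Tnfr2-/- and 14.5 to 45.0 FPKM in WT libraries, most of it Tyrobp, Fcgr3 and Prf1. Some of these NK markers were low in all 12 libraries, with at most 0.63 FPKM of Ncr1, 0.58 FPKM of Klrb1c, 0.35 FPKM of Klra4 and 0.19 FPKM of Klra8. Others were higher, with up to 4.14 FPKM of Eomes in Th0. With IL-6+TGF-β, Gzma reached 3.84 FPKM and Prf1 30.43 FPKM. CD8 transcripts were thus lower, and B cell transcripts higher, in Tnfr2-/- libraries than in every WT group. The 7 myeloid markers summed to 205 to 1438 FPKM in Tnfr2-/- and 85.7 to 164 FPKM in WT TNF+TGF-β libraries. A lower receptor level from a smaller share of cells that express the receptor and one from less RNA per cell cannot be told apart.

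Klrd1, the CD94 gene, was the most abundant of the 6 genes wherever cytokine was added. It had 6.74, 6.96 and 2.71 FPKM in Tnfr2-/- cells with TNF+TGF-β, against 29.48, 34.46 and 38.53 FPKM in WT cells with TNF+TGF-β. The groups did not overlap, and Tnfr2-/- libraries averaged 5.47 ± 2.39 FPKM against 34.2 ± 4.53 FPKM in WT libraries (SD, n = 3 each), a mean 6.24-fold lower. The difference was -2.52 ± 0.30 on the log2 scale (SE, adjusted p = 6.87e-05). Each of the 3 Tnfr2-/- libraries also lay below every WT library of the other groups.

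Without added cytokine, WT Th0 cells had 12.76, 23.81 and 12.14 FPKM of Klrd1, a mean of 16.2 ± 6.57 FPKM (SD, n = 3). The WT TNF+TGF-β libraries all lay above these, and TNF+TGF-β raised Klrd1 by 1.08 ± 0.30 on the log2 scale against Th0 (SE, adjusted p = 0.0167). Replicate 2 of Th0, the highest of its group, lay closest to the TNF+TGF-β range. This call rested on single libraries. It was lost without Th0 replicate 1 (adjusted p = 0.0660), Th0 replicate 3 (0.0712), TNF+TGF-β replicate 2 (0.0516) or TNF+TGF-β replicate 3 (0.0533).

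With IL-6+TGF-β, Klrd1 stood at 175.02, 175.78 and 144.68 FPKM in the 3 WT libraries, a mean of 165 ± 17.7 FPKM (SD, n = 3). That mean was 10.2-fold the Th0 mean, a difference of 3.33 on the log2 scale, and these are the values by which the genes were picked. The WT TNF+TGF-β mean was 4.84-fold below the WT IL-6+TGF-β mean. The order of the groups for Klrd1 was thus IL-6+TGF-β, TNF+TGF-β, Th0 and Tnfr2-/-, with no overlap between neighbours.

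**Figure D1:**
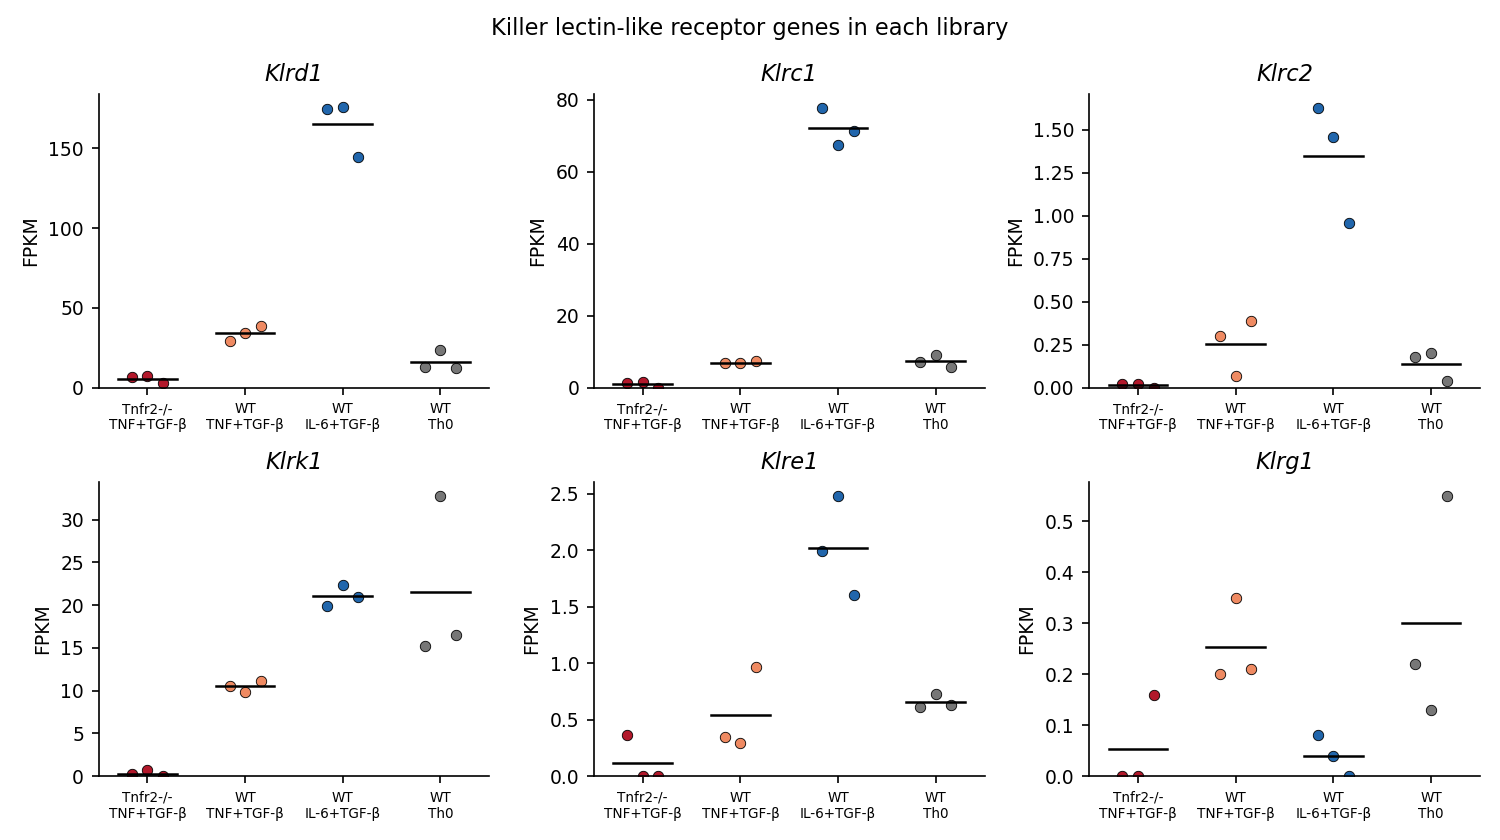
FPKM of the 6 receptor genes in each library, with Tnfr2-/- TNF+TGF-β at the left, followed by the WT groups with TNF+TGF-β, with IL-6+TGF-β and without cytokine (Th0), 1 panel per gene with its own axis. Points are libraries and lines are means over 3 libraries. Klrd1 and Klrc1 stood highest with IL-6+TGF-β, at means of 165 and 72.2 FPKM, while Klrk1 was at like levels with IL-6+TGF-β and in Th0, at means of 21.0 and 21.5 FPKM.

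Klrc1, the gene of the inhibitory partner NKG2A, was also lower without TNF receptor 2, but unlike Klrd1 it stood no higher with TNF+TGF-β than in Th0. It had 1.27, 1.57 and 0 FPKM in Tnfr2-/- libraries, against 6.7, 6.76 and 7.37 FPKM in WT TNF+TGF-β libraries, and the library numbered 4 was the one listed at 0. The groups did not overlap, and the difference was -2.14 ± 0.29 on the log2 scale (SE, adjusted p = 0.000185), or -3.52 with a pseudocount of 0.1 (adjusted p = 0.00505). WT Th0 libraries had 7.12, 9.08 and 5.72 FPKM, a range that holds all 3 WT TNF+TGF-β values. The difference of TNF+TGF-β from Th0 was -0.05 ± 0.29 on the log2 scale (SE, adjusted p = 0.926), and its sign turned without Th0 replicate 2 (0.10).

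With IL-6+TGF-β, Klrc1 had 77.85, 67.43 and 71.21 FPKM, all above every other library. Its mean of 72.2 ± 5.28 FPKM compares with 6.94 ± 0.371 FPKM with TNF+TGF-β and 7.31 ± 1.69 FPKM in Th0 (SD, n = 3 each). These are differences of 3.16 from Th0 and of -3.20 for TNF+TGF-β minus IL-6+TGF-β, both on the log2 scale. The ratio of Klrd1 to Klrc1 FPKM was higher with TNF+TGF-β, in both genotypes, than in the other groups. It was 5.31 and 4.43 in the 2 Tnfr2-/- libraries with Klrc1 above 0 and 4.4 to 5.23 in WT TNF+TGF-β libraries. It was 2.03 to 2.61 in WT IL-6+TGF-β libraries and 1.79 to 2.62 in WT Th0 libraries.

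Klrc2, the gene of the activating partner NKG2C, was near the lower limit of detection. It had 0.02, 0.02 and 0 FPKM in Tnfr2-/- libraries, against 0.3, 0.07 and 0.39 FPKM in WT TNF+TGF-β libraries. WT IL-6+TGF-β libraries had 1.63, 1.46 and 0.96 FPKM, and WT Th0 libraries had 0.18, 0.2 and 0.04 FPKM. Only with IL-6+TGF-β did all 3 libraries of a group exceed the level of 3 fragments on 1 kilobase. With every gene above 0 in any library tested, Klrc2 gave no call for Tnfr2-/- against WT (difference of -0.30, adjusted p = 0.124) or for TNF+TGF-β against Th0 (0.13, adjusted p = 0.564). Klrc3, a further NKG2 gene in the cluster, was at or below 0.42 FPKM in every library.

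Klrk1, the gene of the activating receptor NKG2D, stood at like levels with IL-6+TGF-β and in Th0. It had 0.21, 0.68 and 0 FPKM in Tnfr2-/- libraries, against 10.53, 9.84 and 11.1 FPKM in WT TNF+TGF-β libraries. The difference of -3.18 ± 0.26 on the log2 scale (SE, adjusted p = 8.07e-06) was the largest of the tested receptor genes in this comparison, and with a pseudocount of 0.1 it was -5.19 (adjusted p = 5.14e-05). WT Th0 libraries had 15.25, 32.75 and 16.48 FPKM, all above the WT TNF+TGF-β libraries, and Klrk1 fell by 0.89 ± 0.26 on the log2 scale with TNF+TGF-β (SE, adjusted p = 0.0232). Replicate 2 of Th0 had about the sum of the other two.

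The fall of Klrk1 with TNF+TGF-β was not called without Th0 replicate 2 (difference of -0.55, adjusted p = 0.0698), TNF+TGF-β replicate 1 (adjusted p = 0.0616) or TNF+TGF-β replicate 2 (0.0749). Nor was it called with a pseudocount of 0.1 (0.222), with no filter on low values (0.0523) or with values rescaled to a fixed sum per library (0.0739). WT IL-6+TGF-β libraries had 19.94, 22.3 and 20.9 FPKM of Klrk1, inside the Th0 range, with a difference from Th0 of 0.05 on the log2 scale. The sign of that difference turned without Th0 replicate 1 (-0.14) and without Th0 replicate 3 (-0.09). Mean Klrk1 with TNF+TGF-β was 2.01-fold below that with IL-6+TGF-β, with no overlap. The ratio of Klrd1 to Klrk1 FPKM was 32.1 and 10.2 in the 2 Tnfr2-/- libraries with Klrk1 above 0 and 2.80 to 3.502 in WT TNF+TGF-β. In WT IL-6+TGF-β it was 6.92 to 8.78, and in WT Th0, where Klrk1 was the more abundant of the pair, it was 0.727 to 0.837.

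Klre1, whose product has no CD94 partner, was low throughout. It had 0.36, 0 and 0 FPKM in Tnfr2-/- libraries, against 0.35, 0.29 and 0.97 FPKM in WT TNF+TGF-β libraries. The groups overlapped, and the difference of -0.44 ± 0.21 on the log2 scale did not pass the test (SE, adjusted p = 0.116), although it did with a pseudocount of 0.1 (-1.78, adjusted p = 0.0421). TNF+TGF-β against Th0, where the libraries had 0.61, 0.73 and 0.63 FPKM, gave -0.13 ± 0.21 (SE, adjusted p = 0.657). With IL-6+TGF-β the values of 1.99, 2.48 and 1.6 FPKM lay above every other library.

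Klrg1, the marker of terminal effector cells, did not reach 1 FPKM in any library. It had 0, 0 and 0.16 FPKM in Tnfr2-/-, 0.2, 0.35 and 0.21 FPKM in WT TNF+TGF-β, 0.08, 0.04 and 0 FPKM in WT IL-6+TGF-β, and 0.22, 0.13 and 0.55 FPKM in WT Th0. It was the 1 gene of the 6 whose IL-6+TGF-β values lay below the Th0 values. With no filter on low values, Klrg1 gave differences of -0.25 for Tnfr2-/- against WT (adjusted p = 0.140) and -0.04 for TNF+TGF-β against Th0 (adjusted p = 0.902).

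Counted over the 4 tested receptor genes, 3 were called lower and 0 higher in Tnfr2-/- against WT, in a comparison that called 17.5% of all tested genes lower and 19.9% higher. Their median difference was -2.33, beside 0.0020 over all tested genes. For TNF+TGF-β against Th0, 1 was called higher and 1 lower, where 18.7% of all tested genes were called higher and 13% lower, and the median was -0.09, beside 0.068 over all tested genes. The genes as a set thus had no common direction in the TNF+TGF-β comparison. For the comparisons with IL-6+TGF-β, which the choice of genes used, 14.1% of all tested genes were called higher and 9.15% lower against Th0. Between the WT cytokine groups, TNF+TGF-β over IL-6+TGF-β, these shares were 7.31% and 5.5%. Both comparisons of TNF+TGF-β and IL-6+TGF-β with Th0 share the Th0 libraries, and both Tnfr2-/- against WT and TNF+TGF-β against Th0 share the WT TNF+TGF-β libraries.

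**Figure D2:**
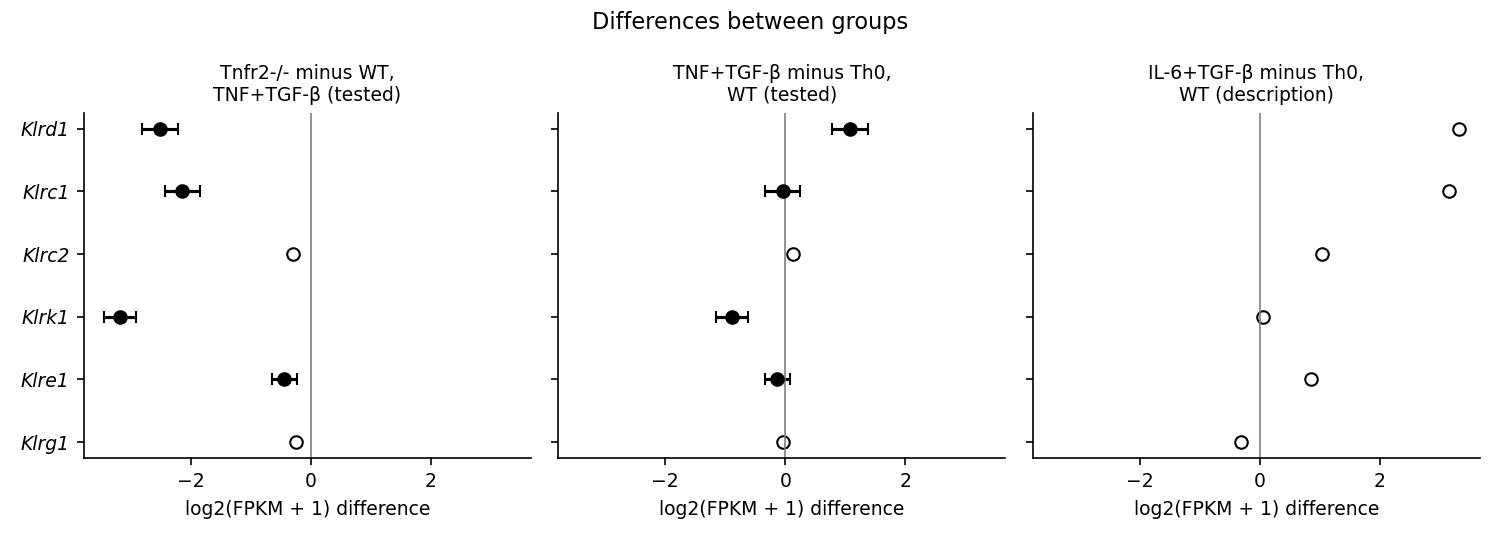
Difference in mean log2(FPKM + 1) for each receptor gene in 3 comparisons, Tnfr2-/- minus WT under TNF+TGF-β, TNF+TGF-β minus Th0 and IL-6+TGF-β minus Th0. Filled points with bars are fitted differences ± SE of tested genes, and open points are values without a test. Klrk1 lay at -3.18 in the first panel, -0.89 in the second and 0.05 in the third, while Klrd1 lay at -2.52, 1.08 and 3.33.

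Because Cd8a and Cd8b1 were lower in Tnfr2-/- libraries together with Klrd1, Klrc1 and Klrk1, each receptor was also set against the mean FPKM of Cd8a and Cd8b1 in the same library, a scaling chosen after the values had been seen. That mean was 14.7 to 39.4 FPKM in Tnfr2-/- libraries, 154 to 179 FPKM in WT TNF+TGF-β, 128 to 172 FPKM in WT IL-6+TGF-β and 57.7 to 90.1 FPKM in WT Th0. Relative to it, Klrd1 was 18.8%, 17.6% and 18.4% in Tnfr2-/- libraries, against 17.4%, 22.4% and 21.5% in WT TNF+TGF-β libraries, so that the groups overlapped. WT Th0 libraries had 22.1%, 26.4% and 17.0%. WT IL-6+TGF-β libraries stood apart at 102%, 137% and 102%.

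With every library rescaled to the geometric mean of its Cd8a and Cd8b1, Klrd1 was not called in Tnfr2-/- against WT (-0.07, adjusted p = 0.830), nor was Klrc1 (-0.76, adjusted p = 0.112). Klrk1 was still called lower (-1.99, adjusted p = 5.71e-05). This rescaling moves the median difference of all tested genes to 2.39 in that comparison, since CD8 transcripts were themselves lower. In TNF+TGF-β against Th0, where the median moves to -0.94, Klrd1 changed sign (-0.09, adjusted p = 0.815) and Klrk1 was lower by more (-1.99, adjusted p = 0.000644). Klrk1 relative to CD8 was 0.587%, 1.72% and 0% in Tnfr2-/- libraries, against 6.22%, 6.40% and 6.20% in WT TNF+TGF-β libraries. It was 11.6% to 17.4% in WT IL-6+TGF-β and 23.03% to 36.4% in WT Th0, and no 2 groups overlapped.

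Relative to CD8, Klrc1 was 3.55%, 3.98% and 0% in Tnfr2-/- libraries, against 3.95% to 4.40% in WT TNF+TGF-β libraries. It was 45.4% to 52.6% in WT IL-6+TGF-β and 7.99% to 12.3% in WT Th0. Scaled instead to Cd3d, Cd3e and Cd3g, which T cells of both coreceptor types express, Klrd1 (-2.20), Klrc1 (-2.01) and Klrk1 (-3.06) were all called lower in Tnfr2-/- against WT, with adjusted p-values of 4.04e-05, 0.000378 and 8.96e-06. That scaling moves the median of all tested genes to 0.32. The B cell and CD8 marker levels given above differed in the same comparison, and their part in the result was not tested.

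**Figure D3:**
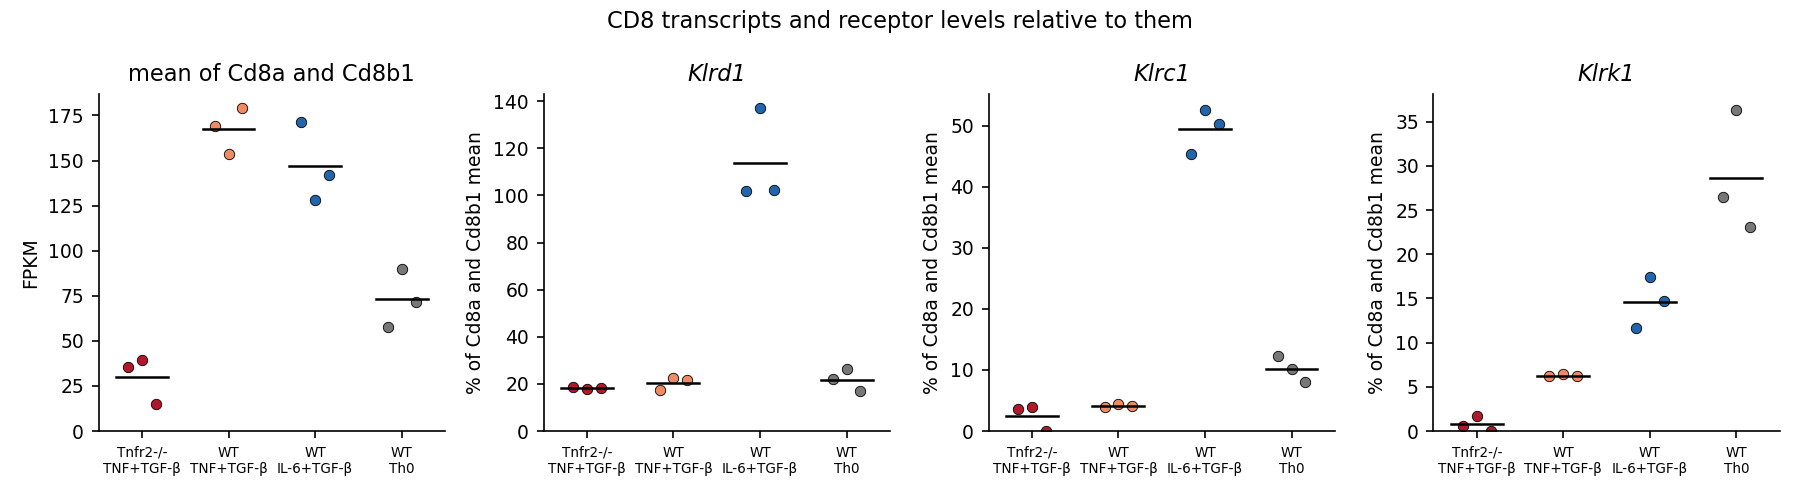
Mean FPKM of Cd8a and Cd8b1 in each library (left), and Klrd1, Klrc1 and Klrk1 as percent of that mean, with Tnfr2-/- TNF+TGF-β at the left of each panel and WT Th0 at the right. Points are libraries and lines are means over 3 libraries. Klrd1 lay between 17.6% and 18.8% in Tnfr2-/- libraries and between 17.4% and 22.4% in WT TNF+TGF-β libraries, whereas Klrk1 was at or below 1.72% in Tnfr2-/- libraries.

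Of 21 other killer lectin-like receptor genes looked for, 20 were in the table and 4 passed the filter. Klrb1f, which encodes an NKR-P1 family receptor for Clec2 ligands, followed a pattern of its own. It had 1.75, 2.5 and 2.97 FPKM in Tnfr2-/- libraries, against 11.11, 9.9 and 7.91 FPKM in WT TNF+TGF-β libraries, and fell by 1.65 ± 0.21 on the log2 scale (SE, adjusted p = 0.000126). WT IL-6+TGF-β libraries had 2.35, 2.55 and 1.31 FPKM and WT Th0 libraries had 1.72, 1.24 and 1.56 FPKM. TNF+TGF-β thus raised Klrb1f against Th0 by 2.08 ± 0.21 (SE, adjusted p = 2.12e-05) and against the IL-6 pair, where Klrd1 had its highest values, by 1.81 ± 0.21 (SE, adjusted p = 0.000118).

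Of the other 3 genes, none reached 1 FPKM in a library of either TNF+TGF-β group. Klri2, a partner gene of Klre1, passed the filter only through its 3 IL-6+TGF-β libraries, and Klra7 and Klra1, of the Ly49 family, passed through IL-6+TGF-β and Th0 libraries, so that calls of lower values against those groups were favoured by the filter. Klra7 and Klri2 were called lower in Tnfr2-/- against WT, at differences of -0.66 and -0.46 (adjusted p of 0.0417 and 0.0445). With Klrb1f, 3 were called lower, in a comparison that called 17.5% of all tested genes lower. That count fell to 1 without WT TNF+TGF-β replicate 2 or 3, or without the Tnfr2-/- library numbered 2 or 4. Klra7 was listed at 0 in the 3 Tnfr2-/- libraries, against 0.34 to 0.99 FPKM in WT TNF+TGF-β libraries. Against Th0, TNF+TGF-β lowered Klra7 (-0.91, adjusted p = 0.0107) and Klra1 (-0.74, adjusted p = 0.0495). Over all tested genes, 13% were called lower in that comparison. The count of 2 fell to 1 without Th0 replicate 1 or 2 or without any 1 of the TNF+TGF-β libraries.

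Of the 20 genes, Klri2 was the 1 called with IL-6+TGF-β against Th0, where 14.1% of all tested genes were called higher. It was tested only because of its IL-6+TGF-β values, so that call was favoured by the filter and its values are a description. Klri2 had 1.24, 1.44 and 1.08 FPKM with IL-6+TGF-β, against 0.08, 0.27 and 0.06 FPKM in Th0, a difference of 0.99 on the log2 scale. Klra7 (-1.25) and Klri2 (-0.58) were called lower with TNF+TGF-β in the comparison of the cytokine pairs, beside 5.5% of all tested genes. Both calls were favoured by the filter, and this count of 2 fell to 1 when any 1 of the 6 libraries was left out. Klra13-ps, a Ly49 pseudogene outside the 20, was picked after its values were seen and reached 1 FPKM only with IL-6+TGF-β. Its values are therefore given as a description, with no test. It had 2.88, 5.3 and 2.62 FPKM with IL-6+TGF-β, against 0.19, 0.24 and 0 FPKM in Th0, a difference of 1.97 on the log2 scale. WT TNF+TGF-β libraries had 0.25 to 0.72 FPKM of it, a difference of -1.62 from the IL-6 pair, and it was listed at 0 in the Tnfr2-/- libraries. Of the 20 genes, 10 were listed at 0 in all Tnfr2-/- libraries, against 1 in WT TNF+TGF-β, 0 in WT IL-6+TGF-β and 2 in WT Th0. None of the 10 reached 1 FPKM in a WT TNF+TGF-β library. Tnfr2-/- libraries also had the lowest estimated depth, 1.68e+07 to 1.93e+07 fragments, against 1.97e+07 or more in WT libraries. The share of all genes at 0 in each group was not computed, so the count is not a result about this family.

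**Figure D4:**
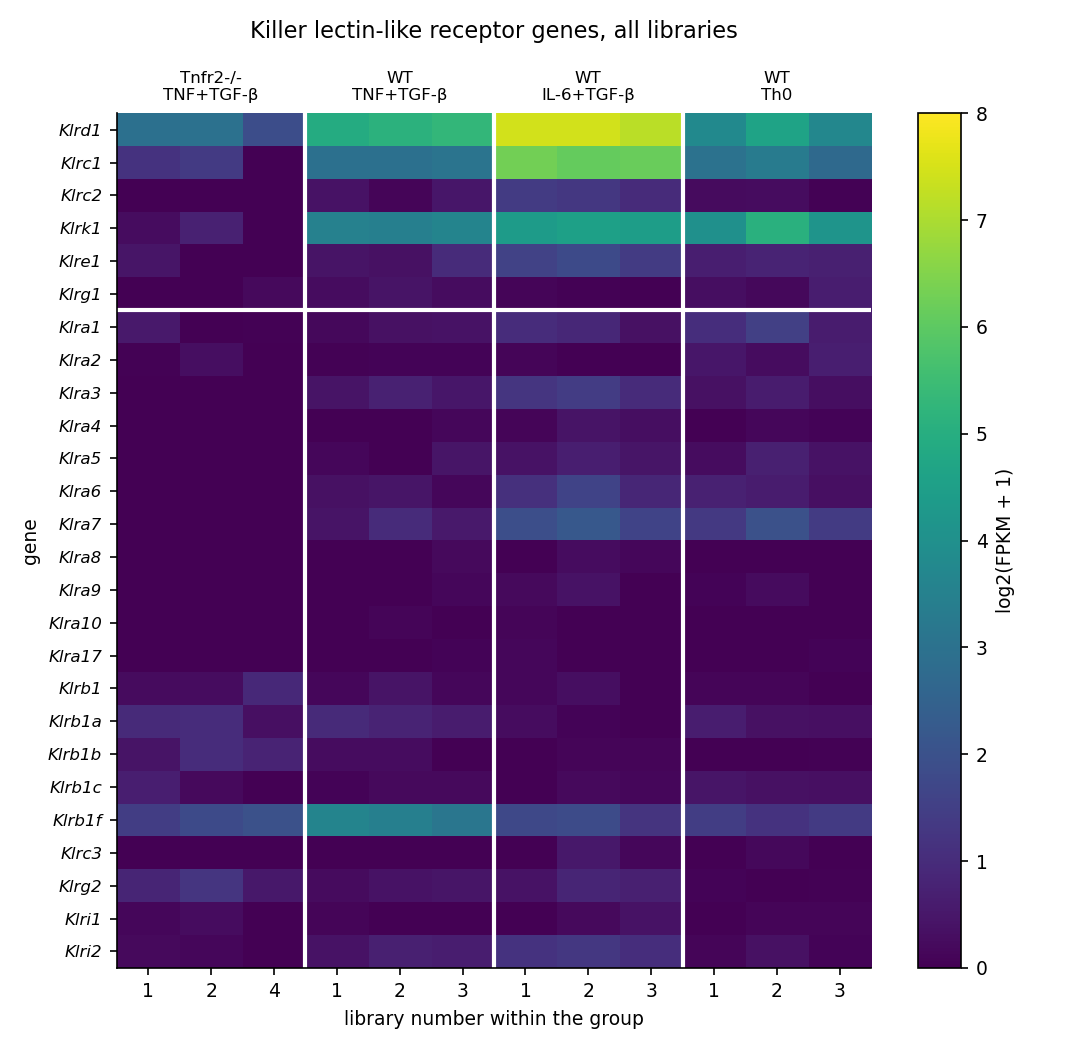
Level of the 6 receptor genes (above the white line) and of 20 other family genes in each library, as log2(FPKM + 1) from 0 (dark) to 8 (bright), with the Tnfr2-/- libraries at the left and WT Th0 at the right. Klrb1f was brightest in the WT TNF+TGF-β libraries, at 7.91 to 11.11 FPKM, while Klrd1 and Klrc1 were brightest with IL-6+TGF-β.

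The adaptor genes, whose products carry the signal, were higher in Tnfr2-/- libraries where the receptor genes were lower. Hcst encodes DAP10, the adaptor of NKG2D, Tyrobp encodes DAP12, and Fcer1g and Cd247 encode further immunoreceptor signalling chains. In Tnfr2-/- against WT, 3 of these 4 rose, namely Tyrobp (2.86, adjusted p = 8.60e-05), Fcer1g (1.89, adjusted p = 0.00194) and Hcst (0.66, adjusted p = 0.00384), and 0 fell. Over all tested genes, 19.9% were called higher and 17.5% lower in that comparison. Hcst had 98.28, 94.76 and 79.63 FPKM in Tnfr2-/- libraries, against 50.6, 59.91 and 60.74 FPKM in WT TNF+TGF-β libraries, while its receptor gene Klrk1 was near 0 in Tnfr2-/- libraries. Tyrobp and Fcer1g are also expressed by myeloid cells, whose 7 markers summed to 205 to 1438 FPKM in Tnfr2-/- libraries, against 85.7 to 164 FPKM in WT TNF+TGF-β libraries, and the part of those cells was not tested.

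Against Th0, where 13% of all tested genes were called lower, TNF+TGF-β lowered 1 adaptor gene, Hcst (-0.75 ± 0.14, adjusted p = 0.00206). Without Th0 replicate 2 the count was 2. With IL-6+TGF-β against Th0, Tyrobp (-1.20, adjusted p = 0.0279) and Hcst (-0.47, adjusted p = 0.0338) were called lower, beside 9.15% of all tested genes. That count of 2 fell to 0 without Th0 replicate 1 or 3 or IL-6+TGF-β replicate 3, and to 1 without IL-6+TGF-β replicate 1 or 2. The 7 myeloid markers summed to 21.2 to 67.1 FPKM with IL-6+TGF-β and 112 to 164 FPKM in Th0, and the part of myeloid cells was not tested. Between TNF+TGF-β and IL-6+TGF-β, 0 of 4 were called, beside 7.31% of all tested genes called higher and 5.5% lower.

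Ligand genes of the class I pathway were lower with both cytokine pairs than in Th0. H2-T23, the Qa-1 gene that CD94 pairs bind, had 373.19, 520.37 and 451.17 FPKM in Tnfr2-/- libraries, against 256, 247.29 and 219.8 FPKM in WT TNF+TGF-β libraries (0.88 ± 0.17, adjusted p = 0.00199). WT IL-6+TGF-β libraries had 338.4, 265.13 and 293.63 FPKM and WT Th0 libraries 519.64, 358.92 and 518.54 FPKM. H2-T23 was called lower than in Th0 both with TNF+TGF-β (-0.93, adjusted p = 0.00165) and with IL-6+TGF-β (-0.62, adjusted p = 0.0203). Over all tested genes, 13% were called lower and 18.7% higher with TNF+TGF-β against Th0. Of 8 tested ligand and ligand-processing genes, 5 fell in that comparison and 0 rose. The others were the peptide transporter genes Tap1 (-1.89) and Tap2 (-0.79), H2-D1 (-0.87), whose leader peptide Qa-1 presents, and B2m (-0.76), the light chain of class I molecules.

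With IL-6+TGF-β against Th0, 6 of the 8 fell and 0 rose, beside 9.15% and 14.1% of all tested genes. The falls were led by Tap1 (-2.06, adjusted p = 9.12e-07). In Tnfr2-/- against WT, where 19.9% of all tested genes were called higher and 17.5% lower, 3 rose. They were led by Clec2i (2.60, adjusted p = 0.000315), which encodes a ligand of the NKR-P1 family. Ulbp1, the gene of the NKG2D ligand MULT1, was the 1 called lower (-0.83, adjusted p = 0.0491), at 4.53, 1.36 and 1.19 FPKM in Tnfr2-/- libraries, against 4.63, 4.81 and 3.92 FPKM in WT TNF+TGF-β libraries. That call was lost without any 1 of the WT TNF+TGF-β libraries or without the Tnfr2-/- library numbered 2 or 4. The other NKG2D ligand genes measured, Raet1d, Raet1e, H60b and H60c, were at or below 0.85 FPKM in all 12 libraries.

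Among 13 genes of signalling below these receptors, 5 rose and 1 fell in Tnfr2-/- against WT, beside 19.9% and 17.5% of all tested genes. The largest differences were in Syk (2.47, adjusted p = 3.54e-05), a kinase recruited by DAP12, and in Plcg2 (1.51, adjusted p = 0.00143), and both are also expressed by B cells, whose markers rose in 8 of 8 genes. Inpp5d (0.98), the phosphatase SHIP1, and Grb2 (0.82), an adaptor of NKG2D signalling, also rose. Plcg1 fell by 0.96 (adjusted p = 0.0278), a call lost without WT TNF+TGF-β replicate 1 or 2 or the Tnfr2-/- library numbered 2 or 4, while without the library numbered 1 the count was 2. With TNF+TGF-β against Th0, 4 rose and 2 fell, beside 18.7% and 13% of all tested genes. Pik3r1 (1.34, adjusted p = 2.25e-05) led the rises, and Syk (-1.26) and Ptpn6 (-0.67), the SHP-1 phosphatase that NKG2A recruits, fell. Without Th0 replicate 1, 2 rose.

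With IL-6+TGF-β against Th0, 5 of the 13 rose and 2 fell, beside 14.1% and 9.15% of all tested genes. Plcg1 (1.16) led the rises, and Ptpn6 (-0.99, adjusted p = 4.68e-05) and Ptpn11 (-0.86) fell. The 5 became 2 without Th0 replicate 1 or 3 or IL-6+TGF-β replicate 2 or 3, and the 2 became 1 without Th0 replicate 3. Syk was the 1 gene called between TNF+TGF-β and IL-6+TGF-β (-1.33, adjusted p = 0.00500), where 5.5% of all tested genes were called lower.

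Of 14 tested transcription factors of NK and CD8 cells, 4 rose and 4 fell in Tnfr2-/- against WT, beside 19.9% and 17.5% of all tested genes. Gata3 (-3.33, adjusted p = 1.22e-05) and Tbx21 (-2.17, adjusted p = 5.37e-05), the T-bet gene, fell, while Id3 (2.52) and Ikzf3 (1.40) rose. Prdm1, also among those called higher, reached 1 FPKM only in Tnfr2-/- libraries (1.49, 1.02 and 1.12 FPKM), so that call was favoured by the filter. With TNF+TGF-β against Th0, 6 rose and 3 fell, beside 18.7% and 13% of all tested genes. Gata3 (3.19), Id2 (1.59) and Runx1 (1.40) led the rises, and Tbx21 (-2.55, adjusted p = 1.33e-05) led the falls. With IL-6+TGF-β against Th0, 6 rose and 4 fell, beside 14.1% and 9.15% of all tested genes. Tcf7 (1.68) and Id2 (1.66) led the rises, and Tbx21 (-1.85) led the falls. Tbx21 therefore stood at 10.36 FPKM or less with TNF+TGF-β and at 11.08 to 16.38 FPKM with IL-6+TGF-β, against 45.95 to 63.99 FPKM in Th0. Between TNF+TGF-β and IL-6+TGF-β, 2 rose, Gata3 (3.75) and Eomes (1.06), and 1 fell, Ikzf3 (-1.48), beside 7.31% and 5.5% of all tested genes. The 2 became 1 without IL-6+TGF-β replicate 1 or 2 or TNF+TGF-β replicate 1 or 2, and the 1 became 2 without IL-6+TGF-β replicate 1.

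Of 8 tested cytotoxic granule genes, 2 fell in Tnfr2-/- against WT, Gzmc (-3.96, adjusted p = 3.83e-06) and Nkg7 (-2.75, adjusted p = 0.000140), and 1 rose, Srgn (1.48). Without the Tnfr2-/- library numbered 1, 4 fell, and without the library numbered 4, 2 rose. Over all tested genes, 17.5% were called lower and 19.9% higher in Tnfr2-/- against WT. With TNF+TGF-β against Th0, Gzmb (-6.71), Prf1 (-1.62) and Srgn (-1.25) fell, and Gzmc (3.22) and Ctsw (2.93) rose. With IL-6+TGF-β against Th0, Ctsw (3.20) and Gzma (1.33) rose, and Gzmb (-2.70) and Fasl (-2.20) fell. Gzma reached 1 FPKM only in IL-6+TGF-β libraries (3.84, 2.78 and 1.87 FPKM). Its calls against Th0 and against TNF+TGF-β were therefore favoured by the filter. Between TNF+TGF-β and IL-6+TGF-β, 2 of these granule genes rose and 4 fell, led by Gzmb (-4.01), beside 7.31% and 5.5% of all tested genes.

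Of 10 tested other receptors of NK and CD8 cells, 5 fell and 1 rose in Tnfr2-/- against WT, beside 17.5% and 19.9% of all tested genes. The largest differences were in Slamf7, a receptor also of B cells, which rose by 2.22, and in Cd226, the activating receptor DNAM-1, which fell (adjusted p = 5.43e-05). Without WT TNF+TGF-β replicate 2, 2 rose. With TNF+TGF-β against Th0, 4 rose, led by Cd96 (2.77), and 4 fell, led by Slamf7 (-2.75), beside 18.7% and 13% of all tested genes. With IL-6+TGF-β against Th0, 2 rose and 3 fell, beside 14.1% and 9.15% of all tested genes. Between TNF+TGF-β and IL-6+TGF-β, 3 rose and 1 fell, beside 7.31% and 5.5%.

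Over the 12 libraries, Klrd1 and Klrc1 varied together, with a Pearson correlation of log2(FPKM + 1) of 0.971, while Klrd1 and Klrk1 gave 0.745 and Klrd1 and Klrg1 gave -0.21. These are descriptions over libraries that share the 4 groups. The genes of at least 5 FPKM on average most like Klrd1 were Upp1 (0.986), Rsph3a (0.983), Batf (0.983), Rnf125 (0.976) and Glipr2 (0.969). Batf, an AP-1 family transcription factor, was also the gene most like Klrc1 (0.971). It had 28.33, 26.26 and 14.43 FPKM in Tnfr2-/- libraries, against 51.09, 69.37 and 56.33 FPKM in WT TNF+TGF-β libraries. WT IL-6+TGF-β libraries had 128.34, 123.77 and 117.63 FPKM of Batf and WT Th0 libraries had 44.95, 53.77 and 38.05 FPKM. The others most like Klrc1 were Upp1 (0.954), Pgs1 (0.953), Mt1 (0.949) and Slc25a15 (0.949).

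The genes most like Klrk1 were different ones, Orc1 (0.974), Cdc6 (0.974), Rangap1 (0.972), Enkd1 (0.971) and Sapcd2 (0.969). Orc1 and Cdc6 encode proteins that license origins of DNA replication. Cdc6 had 17.17, 13.81 and 11.2 FPKM in Tnfr2-/- libraries, against 40.2, 28.93 and 41.32 FPKM in WT TNF+TGF-β libraries, and 51.79, 45.63 and 46.62 FPKM in WT IL-6+TGF-β libraries, with 41.74, 52.04 and 43.35 FPKM in WT Th0 libraries.

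Klrc1 and Klrk1, which lie in the same orientation in the cluster and differed in how far IL-6+TGF-β libraries stood from Th0 (3.16 and 0.05 on the log2 scale), are shown by the 250 bases upstream of their RefSeq starts (GRCm38.p6, reverse strand). Klrk1 lies at chr6:129623865-129624114 and Klrc1 at chr6:129678974-129679223. Capitals mark a match to the RUNX motif TGTGGTT, which begins 129 bases before the Klrk1 start.
Klrk1 upstream: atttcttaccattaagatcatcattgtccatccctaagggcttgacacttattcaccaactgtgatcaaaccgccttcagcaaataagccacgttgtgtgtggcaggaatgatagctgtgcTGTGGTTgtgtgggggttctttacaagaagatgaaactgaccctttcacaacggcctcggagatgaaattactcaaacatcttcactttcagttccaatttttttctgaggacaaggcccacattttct
Klrc1 upstream: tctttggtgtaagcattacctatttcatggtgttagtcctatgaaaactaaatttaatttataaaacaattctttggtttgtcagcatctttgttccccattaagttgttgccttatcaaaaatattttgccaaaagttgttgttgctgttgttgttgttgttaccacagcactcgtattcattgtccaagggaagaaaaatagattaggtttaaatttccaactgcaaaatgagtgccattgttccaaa
Both strands of the windows of Klrk1, Klrc1, Klrc2 and Klre1 were searched for 5 motifs, and the shares below are those of 32851 mouse upstream windows of the same length. The RUNX letters TGTGGTT, held by 4.40% of all windows, were found for Klrk1 and in 1 of the windows of Klre1, and in neither did they overlap another motif. None of these windows held the other motifs. They were TTCNNNGAA, read by STAT factors, which 7.02% of all windows held, and the AP-1 letters TGANTCA, which 6.75% held. The T-box letters TCACACC were in 3.33% of all windows and the SMAD letters GTCTAGAC in 0.167%. A match is a run of letters, not a bound site, and its absence says nothing about the factor.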

How the data were processed

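RNA of 12 libraries, 3 in each of 4 groups, was measured. Per the submitters' processing notes, reads were processed with Trimmomatic, STAR 2.5.4, RSEM 1.3.1 and the mm10 genome. The annotation is not given in the sources used here, and the design had allowed for estimated counts. The deposited values were read as FPKM made by the authors, because library sums differed (689045 to 828161) and values multiplied by transcript length summed to 900467 to 1010096 per library. The column names of the Tnfr2-/- group carry the numbers 1, 2 and 4, so the library numbered 4 is tied to its group and not to 1 label. Per the labels' protocols, libraries were made with Nextera XT, which does not mark strand. Coordinates and coding sequences came from GENCODE M21 (GRCm38), which held 99.1% of the gene identifiers, and upstream sequences from RefSeq.

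For 13082 genes that reached 1 FPKM in 3 or more libraries, log2(FPKM + 1) was modelled by group in limma 3.58.1 (R 4.3.3) with a variance trend and no covariate, and p-values were adjusted by Benjamini-Hochberg. The procedure was tested on simulated data. The receptor genes, the 16 gene lists, the motifs and the tests were chosen with earlier results of these data known. Each list is described by the number of genes called and up to 4 called genes by size, and likeness by the 5 highest correlations. Depth was inferred from the spacing of low FPKM values, of which 77.0% to 88.8% lay within 0.2 of a whole fragment, so it is approximate, and limits from it cover counting error only. Alternatives were the pseudocount, the filter, the scaling, the libraries fitted, the variance trend, a replicate block and leaving out each library. Scaling to CD8 or CD3 genes was added after seeing the data.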

Additional observations from a re-analysis of the deposited data

How the results depend on the processing

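The count of receptor genes called lower in Tnfr2-/- against WT was 3 under all alternatives tried except a pseudocount of 0.1, where it was 4 with Klre1 added, and scaling to Cd8a and Cd8b1, where it was 1. With that pseudocount the differences of Klrk1 and Klrc1 were -5.19 and -3.52. For TNF+TGF-β against Th0, the 1 called higher (Klrd1) became 0 under that scaling and ranged from 0 to 1 when 1 library was left out. The 1 called lower (Klrk1) became 0 with a pseudocount of 0.1, with no filter, with TPM scaling and with scaling to Cd3d, Cd3e and Cd3g, and ranged from 0 to 1 when 1 library was left out. Klrd1 in IL-6+TGF-β against Th0 was 2.31 scaled to CD8 and 3.78 scaled to CD3 genes, and between TNF+TGF-β and the IL-6 pair it was -2.47 scaled to CD3 genes. Signs turned for Klrk1 in IL-6+TGF-β against Th0 (-0.016 with median-ratio scaling, -0.92 scaled to CD8, and -0.14 to 0.39 when 1 library was left out, with -0.14 and -0.088 without Th0 replicates 1 and 3), for Klrd1 in TNF+TGF-β against Th0 (-0.094 scaled to CD8), and for Klrc1 there (0.11 with TPM scaling, 0.16 scaled to CD3 genes, -0.19 to 0.10 when 1 library was left out, with 0.10 without Th0 replicate 2). The cause was not tested. TPM scaling moves the median of all tested genes to 0.22 in TNF+TGF-β against Th0 and -0.10 in Tnfr2-/- against WT.

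Whether replicate numbers pair the libraries was not settled. Deviations from group means of same-numbered libraries correlated at -0.284 to 0.344, the highest between Th0 and IL-6+TGF-β replicates 2. Differently numbered libraries were not compared, so these values have no baseline. With a replicate block, which sets the Tnfr2-/- library numbered 4 aside, the counts stayed at 3 lower in Tnfr2-/- against WT and at 1 higher and 1 lower in TNF+TGF-β against Th0, and Klrd1 in IL-6+TGF-β against Th0 stayed at 3.33. Values of Klrc2, Klre1 and Klrg1 rest on few fragments at this depth.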
